A study of Mus musculus with 16 samples.

Results

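Perivascular macrophages (PVM) of the female mouse hypothalamus and preoptic area (hypothalamus-POA) made up 348 of 55675 kept cells, or 0.625%, in 16 Drop-seq libraries of 1 mouse each. A barcode was kept with more than 200 and fewer than 4000 genes detected and under 15% mitochondrial unique molecular identifiers (UMIs, tags that count each captured RNA molecule once). PVM were selected on measured counts. Their position in the tissue was not measured, and macrophages of other borders of the brain were not told apart from them. A kept cell was called a PVM when it had a UMI of at least 2 of 5 genes, *Mrc1*, *Pf4*, *Cd163*, *F13a1* and *Lyve1*, a UMI of at least 1 of 5 myeloid genes, *Ctss*, *C1qa*, *C1qb*, *C1qc* and *Csf1r*, and a UMI of no more than 1 of 12 genes of other cell types. Those 12 genes were *Mog*, *Mag*, *Agt*, *Aqp4*, *Snap25*, *Syt1*, *Flt1*, *Cldn5*, *Pdgfra*, *Tmem212*, *Acta2* and *Dcn*. The 3854 microglia set beside them had at least 2 of *P2ry12*, *Tmem119*, *Cx3cr1*, *Siglech* and *Gpr34*, met the same myeloid and exclusion conditions, and had fewer than 2 of the PVM genes.

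Perivascular macrophages are resident macrophages of the brain's borders. They lie in the space around vessels that enter the parenchyma, take up material from blood and interstitial fluid through scavenger receptors, and can present antigen. Microglia are the macrophages of the parenchyma itself, and both types arise from yolk sac progenitors.

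The study asked how tamoxifen, a modulator of estrogen receptors used against breast cancer, acts on the hypothalamus and whether estrogen receptor alpha, encoded by *Esr1*, is needed. All mice were females on a mixed CD-1;129P2 background, 8 to 10 weeks old at the start of dosing. Controls, labelled wild-type, were littermates without Cre, and *Esr1* cKO mice had floxed *Esr1* and Nkx2-1-Cre. Each genotype received either tamoxifen at 0.1 mg/kg in corn oil with 0.5% ethanol or corn oil alone, described in the methods as holding 5% ethanol, as 28 daily subcutaneous injections. There were 3 wild-type oil, 5 wild-type tamoxifen, 4 *Esr1* cKO oil and 4 *Esr1* cKO tamoxifen mice. Nkx2-1-Cre acts in cells whose lineage has expressed *Nkx2-1*, and recombination in PVM was not measured, so the cKO label is not taken here as a loss of *Esr1* in the PVM themselves.

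Libraries held 2634253 to 8038158 UMIs in all. PVM numbered 10 to 34 per library, with a median of 22, and their UMIs came to 300660, or 8130 to 34365 per library. Levels below are UMIs of a gene per 1000000 UMIs summed over the cells of a class in a library (CPM), so that a single UMI was worth 29.1 CPM in the deepest PVM sum and 123 CPM in the shallowest. Microglia numbered 92 to 396 per library and gave 2978689 UMIs. Depth per cell was close, with a median of 725 UMIs in PVM and 669 in microglia. Of the distinct kept barcodes, 520 of 54478 occurred in more than 1 library, and 3 PVM had a barcode that was also a kept cell of another library.

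Libraries of 2 mice stood apart from the other 14. Replicate 3 of the wild-type oil group and replicate 3 of the tamoxifen-treated *Esr1* cKO group held no barcode under 100 genes, where the others went down to 20. On the first principal component of the PVM, which took 19.1% of the variance over 961 genes, they lay at 22.3 and 21.1, and the other 14 between -7.42 and 1.33. *Myo3a*, an unconventional myosin, had 0 UMIs in their PVM and 714 in the PVM of the other 14. *Pcdh15*, a cadherin, had 0 against 404, and *Myo7a*, another unconventional myosin, 1 against 778. Microglia of the same libraries separated likewise, at 70.1 and 69.2 against -28.1 to -4.14. Why these libraries differ was not tested, and values without them are given beside the results between groups.

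The genes of the rule were spread over all libraries. *Mrc1*, the mannose receptor, ranged from 2135 to 4918 CPM in the PVM with a median of 3160, and reached at most 33.7 CPM in microglia. *Pf4*, a platelet-type chemokine, had a median of 2859 CPM (1771 to 4569). *F13a1*, the A chain of coagulation factor XIII, had a median of 1962 CPM (1476 to 2841). *Cd163*, the receptor for hemoglobin bound to haptoglobin, had a median of 1275 CPM (436 to 1988). *Lyve1*, a hyaluronan receptor, was the most variable, with a median of 1084 CPM (370 to 2536), and had 376 UMIs in PVM and none in microglia. These values follow from the rule and are given as description. UMIs of *Mrc1* were found in 84.2% of the PVM, of *Pf4* in 81.0%, of *F13a1* in 75.3%, of *Cd163* in 51.4% and of *Lyve1* in 37.4%.

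Of the PVM, 44 had all 5 genes, 112 had 4, 94 had 3 and 98 had exactly 2. The cells just outside the rule, with 1 gene, numbered 137. *Apoe* was at 29022 CPM in the cells with exactly 2 genes and 9918 CPM in those with 1, *Ms4a7* at 824 and 143 CPM, and *Dab2* at 1555 and 286 CPM. Microglial genes ran the other way, with *Sparc* at 497 CPM in cells with 2 genes and 1844 CPM in those with 1, and *P2ry12* at 109 and 600 CPM. At least 2 microglial genes were detected in 9 of the 98 cells (9.18%) and in 49 of the 137 (35.8%). In the PVM as a whole, 188 cells had no microglial gene, 128 had 1 and 32 had more.

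Counts for genes of other cell types in the PVM are given here as a description, since the rule allowed a UMI of no more than 1 of its 12 excluded genes and so held down counts of neurons, glia, endothelium, mural cells and fibroblasts, including *Flt1* below. The 8 T and NK cell genes were all at 0 UMIs. B cell genes had 0 to 3 UMIs per library, and mast cell and ependymal cell genes 0 or 1. Neutrophil genes had 4 UMIs with 4 of 6 genes at 0, and monocyte genes had 22 UMIs, of which 21 were *Ccr2*, with 2 of 4 measured genes at 0. Dendritic cell genes had 126 UMIs, 122 of them *Siglech*, which microglia also express, and 3 of the 7 genes were at 0. Fibroblast genes had 76 UMIs (most in *Igf2*, 36), mural genes 54 (*Rgs5*, 26) and endothelial genes 50 (*Flt1*, 18). Of these, 20 mural and 31 endothelial UMIs came from wild-type tamoxifen replicate 3. Oligodendrocyte genes had 362 UMIs (*Mbp*, 200), astrocyte genes 150 and neuron genes 78 (*Meg3*, 30). Red blood cell genes had 410 UMIs, with *Hbb-bs* the most abundant at 176, of which 139 lay in 1 cell of *Esr1* cKO tamoxifen replicate 3. That library held 339 of the 410. No doublet caller was run, and the part of free RNA or doublets in these counts was not tested.

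The 250 bases before the start are shown for 4 of the 12 genes named below as higher in PVM. These are the 4 with the highest log2FC among those with a promoter entry. Each holds GAGGAA, core letters of motifs bound by the macrophage factor PU.1, or its reverse complement TTCCTC. The sequences are RefSeq's on GRCm38.p6, written 5′ to 3′ on the gene's strand, with these letters in capitals. *Fcna* lies on the minus strand at chr2:25627975-25628224, *Cbr2* on the minus strand at chr11:120732022-120732271, *Wfdc17* on the plus strand at chr11:83703806-83704055 and *Mgl2* on the plus strand at chr11:70130107-70130356.
Fcna: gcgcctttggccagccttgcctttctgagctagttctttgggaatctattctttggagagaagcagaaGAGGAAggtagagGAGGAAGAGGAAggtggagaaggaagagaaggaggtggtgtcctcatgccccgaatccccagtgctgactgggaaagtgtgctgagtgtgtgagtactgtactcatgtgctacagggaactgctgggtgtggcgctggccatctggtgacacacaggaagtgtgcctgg
Cbr2: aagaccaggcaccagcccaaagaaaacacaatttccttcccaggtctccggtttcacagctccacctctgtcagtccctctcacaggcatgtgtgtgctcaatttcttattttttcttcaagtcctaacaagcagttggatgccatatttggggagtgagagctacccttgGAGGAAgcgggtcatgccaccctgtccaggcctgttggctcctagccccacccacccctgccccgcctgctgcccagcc
Wfdc17: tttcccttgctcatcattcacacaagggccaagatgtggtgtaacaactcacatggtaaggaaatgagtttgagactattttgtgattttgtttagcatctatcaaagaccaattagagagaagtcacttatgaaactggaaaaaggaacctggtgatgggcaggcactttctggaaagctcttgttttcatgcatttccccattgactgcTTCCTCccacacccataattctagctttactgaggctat
Mgl2: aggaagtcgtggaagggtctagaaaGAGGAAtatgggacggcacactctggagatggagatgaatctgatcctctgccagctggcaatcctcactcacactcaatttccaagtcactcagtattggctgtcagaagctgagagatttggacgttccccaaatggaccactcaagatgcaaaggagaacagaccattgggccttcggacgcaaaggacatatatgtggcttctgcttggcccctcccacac
The letters occurred 3 times before *Fcna* and once before each of the others. They were found in 23.3% of 32851 promoter windows of this length, in 6 of the 12 windows of the 9 genes named below as higher in PVM that have an entry (both windows of *Dab2* are among the 6) and in 2 of the 8 windows of the 6 genes named as lower (*F11r* and *Il1a*). A match describes the letters and is no evidence of binding. *Spi1*, which encodes PU.1, did not pass the test between the classes (271.67 CPM in PVM and 243.84 in microglia as medians, log2FC 0.09 ± 0.20 SE, adjusted p = 0.698).

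PVM differed from microglia of the same mice in most genes that could be tested. Of tested genes higher in every library, log2FC was highest for *Fcna* (ficolin A, a lectin that starts complement) and *Bmp2* (a bone morphogenetic protein). Then came *Cbr2* (a carbonyl reductase), *Wfdc17*, *Mgl2* (a galactose-type lectin), *Folr2* (a folate receptor) and *Dab2* (an adaptor of endocytosis). Genes that did not pass the filter on low counts were not ranked. Among the lowest were *Nav3*, *Sall1* (the transcription factor of microglial identity) and *Smad7* (an inhibitor of TGF-beta signalling). UMIs summed per library and class were fitted in edgeR's quasi-likelihood model with the library as a block. Of 879 genes tested, 264 (30.0%) were higher and 291 (33.1%) lower in PVM at an adjusted p under 0.05, with a median log2FC of -0.01 over all. The 27 genes of the rules were left out. Both classes were set from genes measured in the same cells, so the calls describe the classes as drawn and are no independent support for them. All 16 libraries of PVM lay above all 16 of microglia for 44 of the 264 genes, and below for 58 of the 291.

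*Fcna* had 504 UMIs in PVM and 1 in microglia, a ratio per UMI of 4993 with a counting interval of 892.1 to 1.976e+05. Its PVM level ran from 246 to 5682 CPM with a median of 1656, and microglia reached at most 4.76 CPM. *Cbr2* ran from 480 to 1592 CPM in PVM (median 898) against 0 to 15.2 in microglia (log2FC 7.77 ± 0.29 SE, adjusted p = 1.42e-27). *Wfdc17* ran from 589 to 5967 CPM in PVM (median 1411) against 0 to 30.3 (log2FC 7.69 ± 0.24, adjusted p = 1.02e-30). Both genes were therefore apart in every library. *Bmp2* had 273 UMIs in PVM and 5 in microglia (log2FC 8.29 ± 0.31). *Mgl2* (7.33 ± 0.29), *Folr2* (7.18 ± 0.36), *Dab2* (7.15 ± 0.21), the neutrophil-attracting chemokine *Cxcl1* (6.97 ± 0.28), the membrane protein *Ms4a7* (6.94 ± 0.28), *AI607873* (6.92 ± 0.30), properdin *Cfp* (6.46 ± 0.32) and galectin-1 *Lgals1* (6.26 ± 0.30) completed the 12 genes with the highest log2FC among those higher in every library.

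In the lower direction the PVM counts were near 0. *Nav3* had 2 UMIs in PVM and 2291 in microglia, *Sall1* 1 and 786, *Smad7* 2 and 1019, and *Gtf2h2* 3 and 682. *Selplg*, a ligand of selectins, ran from 0 to 246 CPM in PVM and from 847 to 1669 CPM in microglia (log2FC -4.71 ± 0.24, adjusted p = 3.04e-22). *Il1a*, the cytokine interleukin-1 alpha, ran from 0 to 219 CPM and from 408 to 964 CPM (log2FC -4.33 ± 0.30, adjusted p = 4.49e-17). Neither gene overlapped between the classes. The metalloprotease *Adamts1* (-4.94 ± 0.25), the junctional protein *F11r* (-4.10 ± 0.44) and *Gm14023* (-4.07 ± 0.33) were named by the same rule. All 6 tested genes of a second microglial list, among them *P2ry13*, *Sall1*, *Sparc*, *Olfml3* and *Trem2*, were lower in PVM, with a median log2FC of -3.93.

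**Figure D1:**
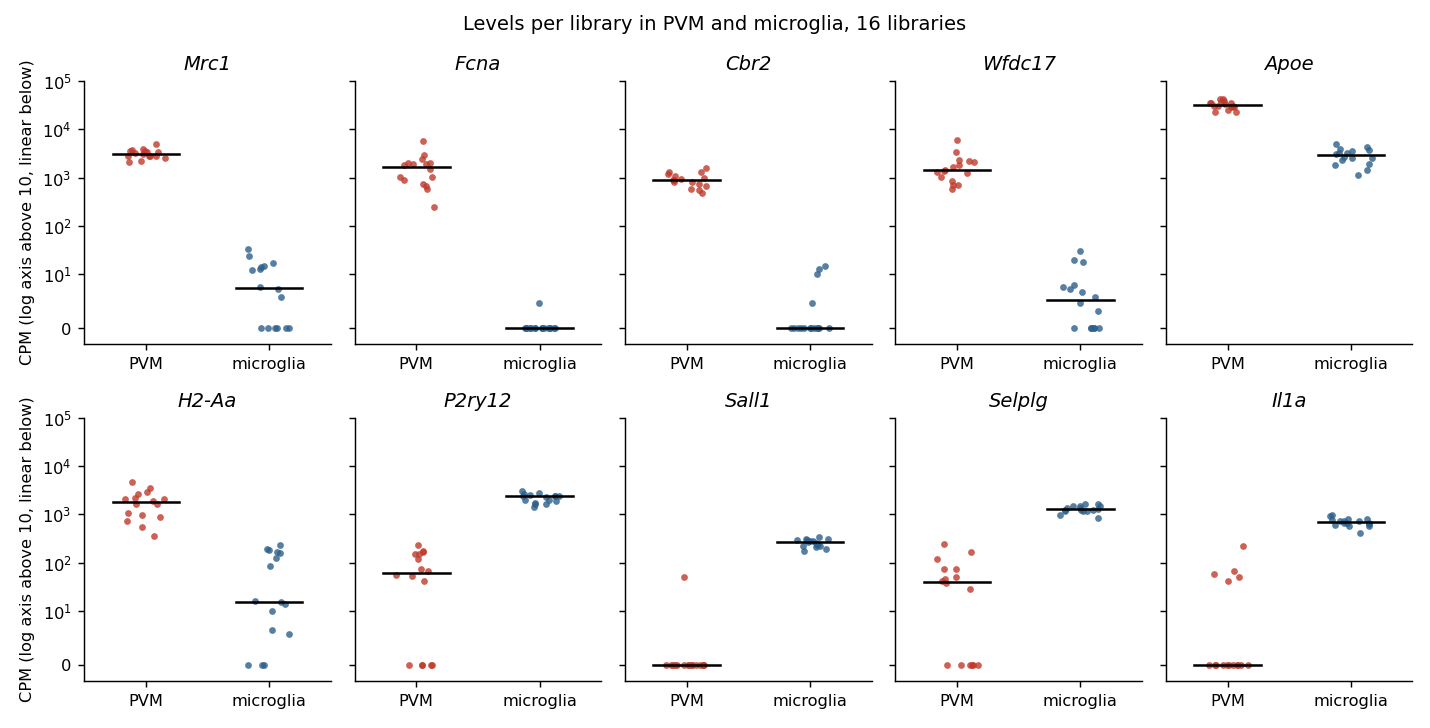
Levels of 10 genes in CPM (vertical axis, logarithmic above 10 and linear below) in PVM (red) and microglia (blue), each point 1 of 16 libraries and each black line the median of the libraries. *Fcna*, *Cbr2*, *Wfdc17* and *Apoe* do not overlap between the classes, *Sall1*, *Selplg* and *Il1a* lie lower in every PVM library, and *Mrc1* and *P2ry12* belong to the rules that set the classes.

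Of the tested genes of uptake, more were higher than lower in PVM. Of 25 genes listed as scavenger and endocytic receptors, 10 could be tested, 6 were higher and 3 lower, with a median log2FC of 2.87. The 6 include *Fcna* (10.05) and *Dab2* (7.15), a lectin and an adaptor that are not receptors themselves and that raise this median. *Stab1*, a receptor for modified lipoproteins, ran from 373 to 1185 CPM in PVM and from 32.0 to 132 CPM in microglia (log2FC 3.43 ± 0.21, adjusted p = 1.75e-19). *Cd36*, a fatty acid and scavenger receptor, had a log2FC of 4.72 ± 0.32, and the inhibitory Fc receptor *Fcgr2b* one of 2.31 ± 0.18. The lower genes were *Mertk*, which binds dying cells through bridging proteins (-1.84 ± 0.19), the lipoprotein receptor *Lrp1* (-2.38 ± 0.27) and the Fc receptor *Fcgr1* (-0.63 ± 0.19). *Fcgr3* did not pass (-0.04 ± 0.15, adjusted p = 0.839). Genes that did not pass the filter on low counts included the lectins *Clec10a* with 200 UMIs in PVM and 3 in microglia, *Cd209f* with 83 and 2, and *Cd209g* with 52 and 0. *Vsig4*, a complement receptor, had 33 and 0.

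Most tested chemokines were higher in PVM and most tested receptors for them or for cytokines lower. Of 9 tested chemokines and cytokines, 6 were higher and 1 was lower, with a median of 2.47. *Ccl7*, a monocyte attractant, ran from 1771 to 6949 CPM in PVM and from 11.5 to 209 CPM in microglia (log2FC 6.07 ± 0.17). *Cxcl2* ran from 1129 to 6518 CPM against 13.5 to 229 (5.56 ± 0.18), and *Ccl2* from 1907 to 6274 against 121 to 480 (3.63 ± 0.14). Neither *Ccl4* (-0.21 ± 0.15, adjusted p = 0.214) nor *Il1b* (-0.51 ± 0.27, adjusted p = 0.0991) passed. Of 7 tested receptors, 6 were lower and none was higher. Among them were *Tgfbr1*, a receptor for TGF-beta (-3.78 ± 0.19), the *Il10ra* chain of the interleukin-10 receptor (-1.40 ± 0.24) and *Ifngr1* of the interferon-gamma receptor (-0.94 ± 0.20). *Tgfbr2* did not pass (0.12 ± 0.22, adjusted p = 0.654).

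Most tested genes of MHC class II were higher in PVM, and so were most of interferon response in the TMM-normalised fit. Of 5 tested MHC class II genes, 4 were higher and the fifth, the costimulator *Cd86*, did not pass (0.20 ± 0.17, adjusted p = 0.290). *H2-Aa* ran from 349 to 4702 CPM in PVM (median 1767) and from 0 to 237 CPM in microglia (log2FC 4.83 ± 0.27, adjusted p = 1.31e-20). *H2-Eb1* had a log2FC of 4.59 ± 0.27, *H2-Ab1* of 4.11 ± 0.25 and the invariant chain *Cd74* of 3.90 ± 0.19. Of 6 tested interferon genes, 5 were higher, with *Ifitm2* (5.70 ± 0.34) and *Ifitm3* (5.41 ± 0.24), which block virus entry, above *Ifi27l2a* (2.85 ± 0.26), *H2-D1* (0.50 ± 0.11) and *B2m* (0.30 ± 0.09), although with the positive-count scaling described below 3 were higher and 3 lower, *H2-D1* at -0.78 and *B2m* at -0.98.

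Lipid, iron and complement genes differed gene by gene. *Apoe*, the carrier of cholesterol, ran from 22726 to 42913 CPM in PVM and from 1148 to 4977 CPM in microglia (log2FC 3.54 ± 0.12, adjusted p = 1.13e-29). The lipid receptor *Trem2* was lower in PVM (-1.50 ± 0.14), and the cholesterol transporter *Npc2* did not pass (0.30 ± 0.14, adjusted p = 0.0524). All 4 tested iron genes were higher, with the ferroxidase ceruloplasmin *Cp* at 4.85 ± 0.23, transferrin *Trf* at 1.23 ± 0.14, and the ferritin chains *Ftl1* and *Fth1* at 1.12 ± 0.13 and 0.97 ± 0.08, although with the positive-count scaling described below only *Cp* stayed above 0 and the median of the list was -0.10. Copies of *Ftl1* elsewhere in the genome are nearly identical and may share its reads, so its count is uncertain. In complement outside C1q, *Cfp* and the anaphylatoxin receptor *C5ar1* (3.02 ± 0.22) were among the higher genes and the receptor chain *Itgam* was lower (-1.99 ± 0.17).

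Lysosomal genes split. Of 17 tested, 7 were higher and 8 lower, with a median of 0.25. The cathepsins *Ctsc* (1.81 ± 0.11) and *Ctsb* (1.42 ± 0.09) and the membrane proteins *Cd63* (1.77 ± 0.15) and *Cd68* (0.95 ± 0.16, but -0.32 with positive-count scaling) were among the higher. *Cst3*, an inhibitor of cathepsins, ran from 3681 to 7824 CPM in PVM and from 31848 to 53411 CPM in microglia (log2FC -2.92 ± 0.08). *Ctsd* (-1.80 ± 0.11) and *Lgmn* (-1.79 ± 0.12) were lower as well.

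Among 15 tested transcription factors, 3 were higher and 7 lower. *Maf*, a factor of tissue macrophages, ran from 873 to 3359 CPM in PVM and from 419 to 604 CPM in microglia (log2FC 2.02 ± 0.12). *Klf4* (1.19 ± 0.17) and *Klf2* (0.58 ± 0.15) were higher but turned to -0.08 and -0.67 with positive-count scaling, and *Cebpa* (-2.22 ± 0.29), *Id2* (-2.13 ± 0.22), *Mef2a* (-1.35 ± 0.15), *Irf8* (-0.84 ± 0.18) and *Mef2c* (-0.41 ± 0.12) lower. Of 14 tested immediate early and stress genes, 10 were lower and 2 higher. Immediate early genes respond within minutes to stimulation and also to tissue dissociation. *Egr1* (-1.76 ± 0.15), *Junb* (-1.19 ± 0.13) and *Fos* (-0.38 ± 0.11) were among the lower. *Ier3* (0.83 ± 0.14) and *Dusp1* (0.43 ± 0.11) were the higher, but turned to -0.45 and -0.84 with positive-count scaling. Signals to vessels and matrix were mostly higher, with 4 of 5. *Gas6*, a ligand of Mertk, ran from 449 to 910 CPM against 6.55 to 105 (log2FC 3.57 ± 0.20), *Nrp1*, a coreceptor of vascular growth factors, had 3.44 ± 0.22 and *Sdc4* 2.68 ± 0.23. The matrix protein *Sparc* was lower (-3.86 ± 0.16). In the list of other border macrophage genes, 6 of 9 were higher, including *Ms4a6c* (4.46 ± 0.22) and *Ms4a6b* (3.87 ± 0.24).

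**Figure D2:**
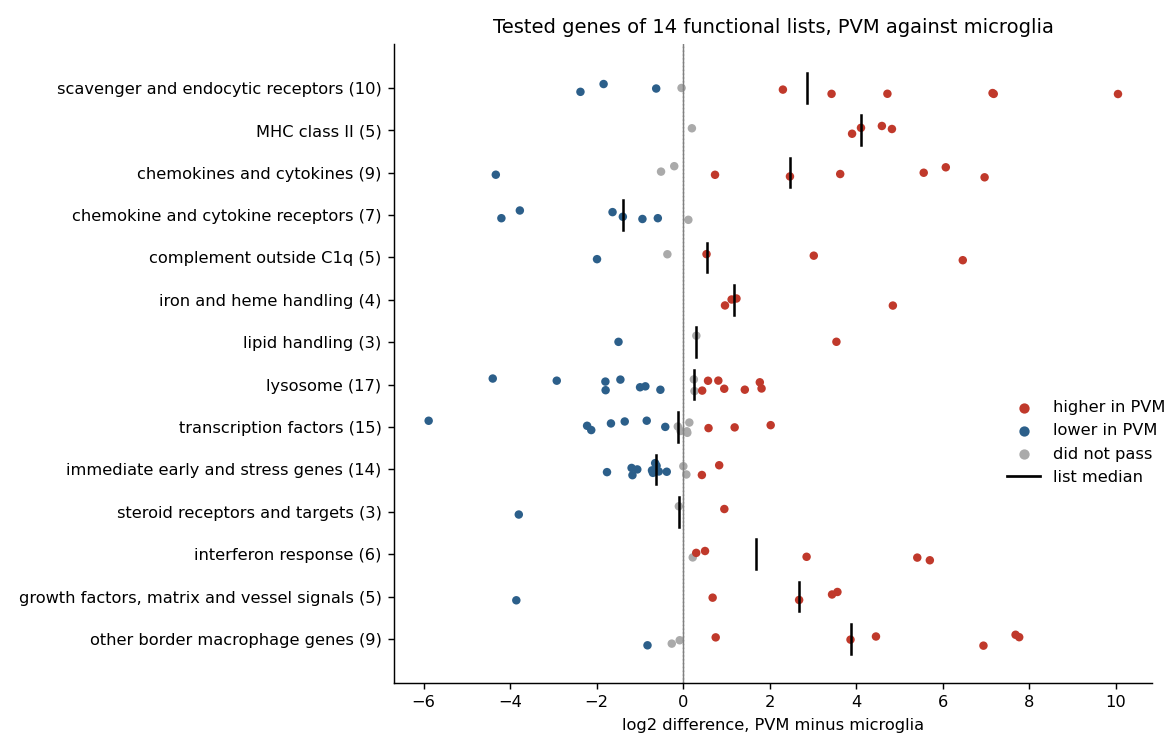
Log2 difference (horizontal axis, PVM minus microglia) of each tested gene in 14 lists, with the number tested in parentheses. Red points were higher and blue points lower at an adjusted p under 0.05, grey points did not pass, and black bars are list medians, which run from -1.40 for chemokine and cytokine receptors to 4.11 for MHC class II.

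The scale of these differences depends on how the classes are brought to a common level. With DESeq2's median-ratio size factors, computed from the 573 genes counted in every sum, the median over all genes was -0.31, and 554 genes were called in edgeR, of which 152 (27.4%) were higher in PVM, compared with 47.6% in the TMM-normalised fit. With size factors from positive counts alone the median was -1.27, and 47 of 841 called genes were higher. Of the 264 genes called higher in PVM in the TMM-normalised fit, 263 stayed above 0 with the median-ratio factors and 57 with the positive-count factors. The medians for lysosome (-0.04) under the first, and for complement (-0.73), iron (-0.10), lipid (-0.98) and lysosome (-1.02) under the second, changed sign, so that no direction is drawn for these 4 lists as a whole. The 24 named genes kept their direction and their call in every alternative that could test them.

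MHC class II was uneven among the PVM. A UMI of *H2-Aa*, *H2-Ab1*, *H2-Eb1* or *Cd74* was found in 143 of the 348 cells (41.1%, exact 95% interval 35.9 to 46.5%), and 72 cells (20.7%, 16.6 to 25.3%) with 10 or more such UMIs held 92.0% of the 2623. At the other end 205 cells had none. Between 5 and 20 UMIs lay 42 cells. The MHC-rich cells are thus cut from a count per cell, and whether they are a type of their own was not tested. Depth was alike, with a median of 729 UMIs in the 72 cells and 722.5 in the other 276. *Lyve1* was found in 9 of the 72 and in 121 of the 276, or 12.5% and 43.8%. *Fcna* was at 295 CPM in the MHC-rich cells and 2027 CPM in the others, and *Folr2* at 213 and 613 CPM. *Mrc1* was at 2347 and 3562 CPM, *Pf4* at 3052 and 3137 CPM, and *Ms4a7* at 738 and 809 CPM. *Mgl2* ran the other way, at 919 CPM in the MHC-rich cells and 763 CPM in the others. *Ccr2*, a receptor of monocytes, had 18 UMIs in 10 of the MHC-rich cells and 3 UMIs in 2 of the others, and *Flt3*, a marker of dendritic cells, 0 and 1. These contrasts pool cells of mice that differ in both quantities, with 23 MHC-rich cells among 55 PVM in wild-type oil and 13 among 89 in *Esr1* cKO oil, and 11 each in replicates 2 and 3 of wild-type oil. Within a library, the MHC-rich cells had the lower level of *Fcna* and of *Lyve1* in 16 of 16 libraries, in 10 of which they had none, of *Folr2* in 14, of *Mrc1* in 12 and of *Pf4* in 10. With libraries weighted equally *Fcna* was at 305 and 1986 CPM. Some libraries have 1 MHC-rich cell, and no test was made over cells.

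The level of MHC class II also varied between mice. In wild-type oil it was 4305, 16882 and 19007 CPM, and in wild-type tamoxifen 6644, 11868, 13200, 8863 and 4777 CPM. In *Esr1* cKO oil it was 2316, 3539, 11109 and 6898 CPM, and in *Esr1* cKO tamoxifen 4582, 5597, 2037 and 9816 CPM. The means were 13398 ± 7946 (SD, n = 3), 9071 ± 3509 (n = 5), 5966 ± 3939 (n = 4) and 5508 ± 3239 (n = 4), and all 4 groups overlapped. The highest of the 16 values (19007) and the lowest (2037) belong to the libraries that stood apart. Without them the mean was 10594 CPM in wild-type oil (n = 2) and 6665 ± 2776 CPM in *Esr1* cKO tamoxifen (SD, n = 3), which puts the latter above *Esr1* cKO oil. No MHC class II gene passed in any contrast between groups. The lowest p was that of *H2-Ab1* in *Esr1* cKO against wild-type under oil (log2FC -1.31, edgeR adjusted p = 0.539).

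**Figure D3:**
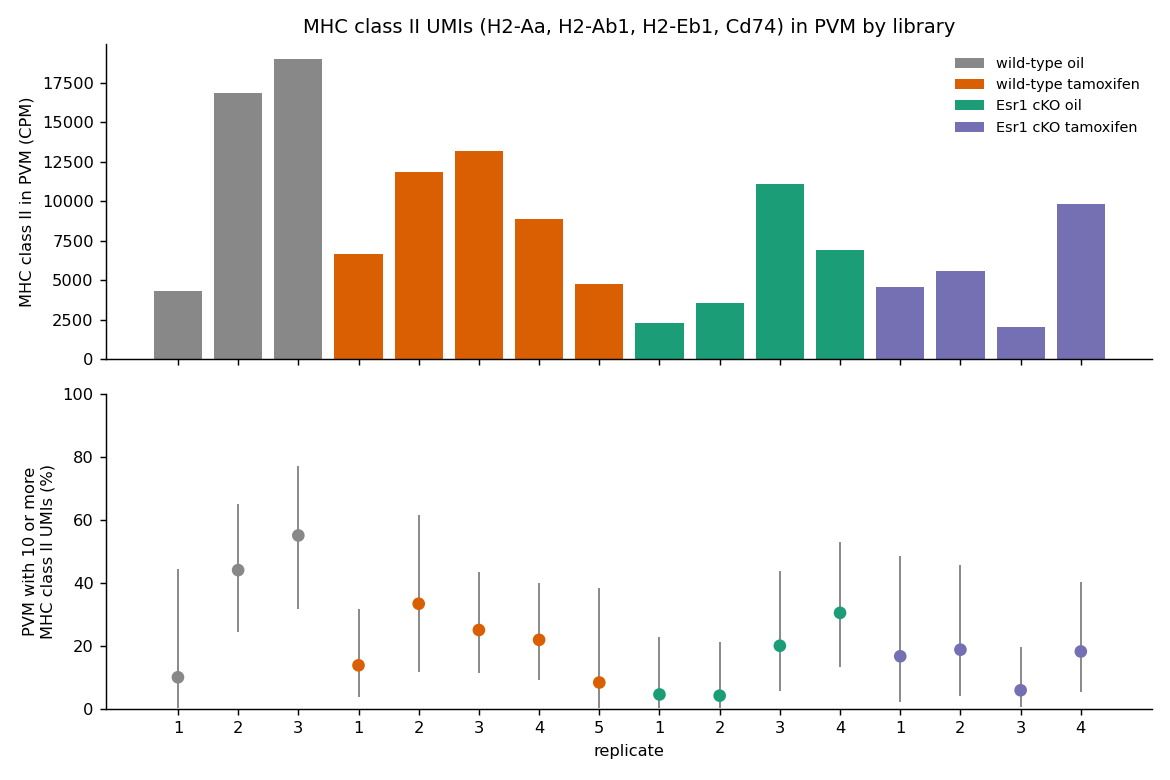
Top, MHC class II level in PVM (CPM) of each library, by group. Bottom, percent of PVM with 10 or more MHC class II UMIs in each library with exact 95% intervals, which cover counting error only. The level ranges from 2037 CPM in *Esr1* cKO tamoxifen replicate 3 to 19007 CPM in wild-type oil replicate 3, both of which are libraries that stood apart.

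UMIs of *Esr1* itself were found in 14 of 348 PVM (4.02%, exact 95% interval 2.22 to 6.66%) and in 280 of 3854 microglia (7.27%, 6.47 to 8.13%). With cells thinned to 500 UMIs, which left out 88 PVM and 1129 microglia with fewer, the shares were 8 of 260 PVM (3.08%) and 138 of 2725 microglia (5.06%, 4.27 to 5.96%). Intervals of the thinned shares overlapped, that of the PVM being 1.34 to 5.97%. For comparison, cells with UMIs of both *Mog* and *Mag*, genes of oligodendrocytes, gave 169 of 5883 (2.87%) unthinned at a median of 941 UMIs and 64 of 5169 (1.24%, 0.955 to 1.58%) thinned. The interval of the PVM overlapped theirs and that of the microglia lay above it. These intervals pool cells of all mice and cover counting error only. The part of free RNA in any of these shares was not tested. PVM with an *Esr1* UMI were 6 of 175 in wild-type and 8 of 173 in *Esr1* cKO, and 6 of 155 and 8 of 139 without the libraries that stood apart. *Esr2* was found in 2 PVM, *Pgr* in 2 and *Gper1* in 1. The glucocorticoid receptor *Nr3c1* was found in 49 (14.1%) and its level did not pass the test between the classes (log2FC -0.10 ± 0.23, adjusted p = 0.715). Of its common targets, *Tsc22d3* was higher (0.95 ± 0.18, but -0.31 with positive-count scaling) and *Sgk1* lower (-3.80 ± 0.21) in PVM.

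No difference between groups in the number of PVM passed the test, but with so few mice a difference in 1 contrast alone could not pass. As a share of kept cells they were 0.654 ± 0.101% in wild-type oil (SD, n = 3), 0.552 ± 0.178% in wild-type tamoxifen (n = 5), 0.695 ± 0.166% in *Esr1* cKO oil (n = 4) and 0.670 ± 0.201% in *Esr1* cKO tamoxifen (n = 4). The difference of tamoxifen and oil was -0.102 percentage points in wild-type (exact permutation p = 0.429) and -0.0242 in *Esr1* cKO (exact permutation p = 0.857). Per 100 microglia the means were 9.87 ± 2.17, 8.37 ± 3.02, 10.4 ± 1.48 and 8.64 ± 2.58 in the same order, with exact permutation p = 0.464 for tamoxifen in wild-type and 0.229 in *Esr1* cKO. Over the 4 contrasts of each measure, tested 2-sided, the lowest adjusted p by exact permutation was 0.857 for the share and 0.914 per 100 microglia. By this test the lowest p possible is 0.0357 for tamoxifen in wild-type and 0.0286 in *Esr1* cKO. For genotype it is 0.0571 under oil, with 3 and 4 mice, and 0.0159 under tamoxifen. After adjustment over the 4 contrasts, 1 contrast alone cannot pass even without overlap, so these tests do not show equal numbers. Without both libraries that stood apart, tamoxifen against oil was -0.118 percentage points in wild-type and -0.0763 in *Esr1* cKO. Per 100 microglia it was -2.74 and -2.83. The lowest adjusted p by exact permutation was 0.933 for the share and 0.229 per 100 microglia. *Esr1* cKO tamoxifen mice then had 6, 9.30 and 7.33 PVM per 100 microglia, all below the *Esr1* cKO oil mice at 9.48 to 12.6. With 3 and 4 mice that contrast cannot reach p under 0.0571, so it could not pass even without overlap.

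No gene passed the threshold in any contrast between groups within the PVM. Of 396 genes tested in each, 0 (0.0%) were called by edgeR for tamoxifen against oil in wild-type, for the same in *Esr1* cKO, for the interaction, and for *Esr1* cKO against wild-type under oil or tamoxifen. The numbers at an unadjusted p under 0.05 were 14, 15, 24, 28 and 19 in that order. With few mice per group and 10 to 34 PVM per mouse, 0 calls do not show equal levels. DESeq2 called 2 genes in the interaction, *Fcna* (adjusted p = 0.0204) and *Usp24* (adjusted p = 0.0204), and *Fcna* in *Esr1* cKO against wild-type under oil (adjusted p = 0.0189). With positive-count size factors DESeq2 called 0 genes in the latter contrast (lowest adjusted p = 0.0532). The contrasts share control samples, and their values are given side by side.

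*Fcna* had the lowest p in the interaction and in *Esr1* cKO against wild-type under oil. It was at 738, 246 and 909 CPM in wild-type oil and at 2384, 2049, 1947, 658 and 1820 CPM in wild-type tamoxifen. It was at 2044, 5682, 2989 and 1491 CPM in *Esr1* cKO oil and at 1964, 589, 1018 and 1014 CPM in *Esr1* cKO tamoxifen. Every *Esr1* cKO oil mouse lay above every wild-type oil mouse, while the other pairs overlapped. MHC-rich cells, in which *Fcna* was lower, were 23 of 55 PVM in wild-type oil and 13 of 89 in *Esr1* cKO oil. In the other cells alone *Fcna* was at 808, 437 and 1155 CPM in wild-type oil and at 2113, 5960, 3632 and 1867 CPM in *Esr1* cKO oil. These wild-type oil values rest on 6, 6 and 15 UMIs in 9, 14 and 9 cells. The part of the MHC-rich cells in the difference between genotypes was not tested. Over all PVM, the edgeR estimates were 2.38 ± 0.55 for genotype under oil (adjusted p = 0.139), -1.47 ± 0.47 for tamoxifen in *Esr1* cKO (adjusted p = 0.803, and -1.37 without the libraries that stood apart) and -3.09 ± 0.71 for the interaction (adjusted p = 0.136). The 504 UMIs came from 101 cells, and 1 cell of *Esr1* cKO oil replicate 2 held 43 of that library's 114. Without the pair of libraries that stood apart, the genotype difference under oil was 2.85 (edgeR adjusted p = 0.0382) and *Cep85* was called with it (-4.92, adjusted p = 0.0382), while the interaction was -3.50 (adjusted p = 0.0748). Without wild-type tamoxifen replicate 4 the interaction was -3.33 (edgeR adjusted p = 0.0367).

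*Mgl2* was at 369, 1027 and 514 CPM in wild-type oil, 659, 598, 389, 395 and 758 CPM in wild-type tamoxifen, 954, 399, 733 and 513 CPM in *Esr1* cKO oil and 1200, 1547, 1018 and 1921 CPM in *Esr1* cKO tamoxifen. The last group lay above every mouse of wild-type tamoxifen and of *Esr1* cKO oil. The edgeR log2FC was 1.34 ± 0.33 for genotype under tamoxifen (adjusted p = 0.245) and 1.12 ± 0.35 for tamoxifen in *Esr1* cKO (adjusted p = 0.803, and 1.32 at adjusted p = 0.290 without the libraries that stood apart). Without the libraries that stood apart, the genotype difference under tamoxifen was 1.51 (adjusted p = 0.0242), and *Fn1*, *Ptgds* and *Wfdc17* were called with it, for 4 in all.

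*Ftl1* was at 2706, 1479 and 2015 CPM in wild-type oil, above all wild-type tamoxifen mice at 406, 1195, 623, 746 and 834 CPM. *Esr1* cKO mice had 954, 947, 1128 and 419 CPM under oil and 873, 663, 1280 and 1227 CPM under tamoxifen. The log2FC for tamoxifen in wild-type was -1.37 ± 0.34 (edgeR adjusted p = 0.253), and -1.41 without both libraries that stood apart (adjusted p = 0.264). *Ms4a7* was at 615, 1273 and 1739 CPM in wild-type oil and at 545, 449, 508 and 373 CPM in *Esr1* cKO oil, without overlap (edgeR log2FC -1.36 ± 0.41, adjusted p = 0.455). Without the same libraries it was -1.17 (adjusted p = 0.545).

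*Ccl3*, a chemokine, was at 738, 698 and 711 CPM in wild-type oil and at 1877, 1452, 1090, 2413 and 531 CPM in wild-type tamoxifen, where the fifth mouse lay below the oil mice. In *Esr1* cKO it was at 1158, 748, 902 and 746 CPM under oil and at 1309, 1988, 2037 and 1547 CPM under tamoxifen, without overlap. The edgeR log2FC for tamoxifen was 1.15 ± 0.37 in wild-type (adjusted p = 0.490) and 0.94 ± 0.34 in *Esr1* cKO (adjusted p = 0.911), and without both libraries that stood apart the former was 1.10 (adjusted p = 0.661). *Wdr26* had a log2FC of -1.41 ± 0.47 for tamoxifen in *Esr1* cKO (edgeR adjusted p = 0.803), and -1.39 without those libraries. The mitochondrial gene *mt-Nd6* had one of -0.93 ± 0.29 for genotype under tamoxifen (edgeR adjusted p = 0.612), and -1.13 without them. None of these passed. A few cells set some of the other estimates. *Ptgds*, an oligodendrocyte and meningeal prostaglandin synthase, had 489 of the 490 UMIs of wild-type tamoxifen replicate 2 in 1 cell, and *Usp24* had 27 of the 31 UMIs of *Esr1* cKO oil replicate 4 in 1 cell.

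**Figure D4:**
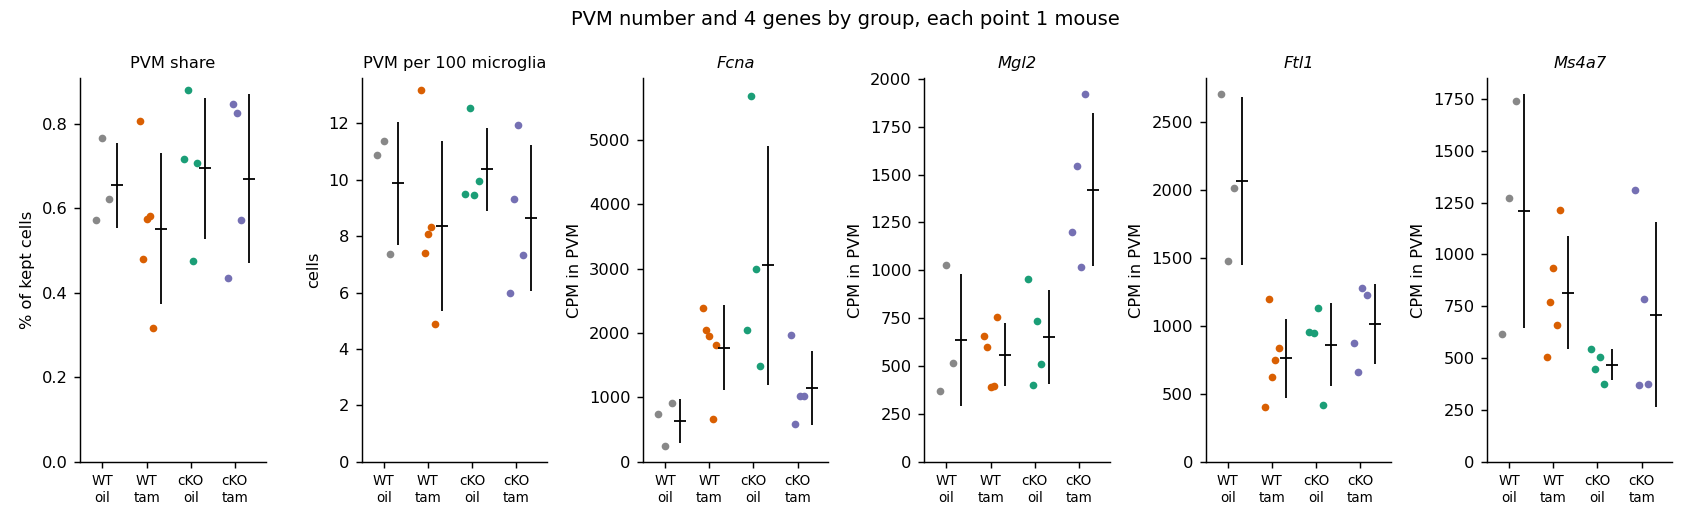
PVM share of kept cells (%), PVM per 100 microglia, and PVM levels of *Fcna*, *Mgl2*, *Ftl1* and *Ms4a7* (CPM) by group, each point 1 mouse, with the group mean and SD beside it. Groups overlap in both counts of cells, and *Fcna* in wild-type oil (246 to 909 CPM) lies under *Esr1* cKO oil (1491 to 5682 CPM).

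Whether tamoxifen moved PVM and microglia differently was tested in a model with terms for class and treatment. In wild-type, 0 of 879 genes (0.0%) were called by edgeR, with 37 at an unadjusted p under 0.05. In *Esr1* cKO, 2 genes (0.228%) were called, *H2-Aa* (difference of log2FC -4.88 ± 0.91, adjusted p = 0.00231) and *H2-Eb1* (-4.10 ± 0.81, adjusted p = 0.00323). Fitted alone, the microglia had 0 of 4518 genes called by edgeR for tamoxifen in *Esr1* cKO (lowest adjusted p = 0.396), with a log2FC of 5.14 ± 1.33 for *H2-Aa* and 3.90 ± 1.02 for *H2-Eb1* (both at adjusted p = 0.840). Their *H2-Aa* UMIs were 1, 1, 0 and 0 in the oil mice and 29, 23, 2 and 31 in the tamoxifen mice, while those of the PVM were 8, 18, 39 and 41 and then 9, 22, 12 and 49. The PVM's own log2FC for tamoxifen in *Esr1* cKO was -0.06 for *H2-Aa* (adjusted p = 0.993). Microglia with 10 or more MHC class II UMIs numbered 0 in each *Esr1* cKO oil mouse and 3, 2, 0 and 5 in the tamoxifen mice. Over all groups there were 25 such microglia, and they held 970 of that class's 1437. These 25 had *Lyz2*, a lysozyme, at 3198 CPM against 195 CPM in the other microglia, and *P2ry12* at 404 against 2278 CPM. They also had *Ms4a7* at 337 against 2.03 CPM, *Mrc1* at 269 against 5.76 CPM and *Ccr2* at 370 against 4.41 CPM. The part of another myeloid type among them was not tested. Without *Esr1* cKO oil replicate 4, 0 genes were called (*H2-Aa* -4.33, *H2-Eb1* -4.06, both at adjusted p = 0.0530). *H2-Eb1* alone lost its call without *Esr1* cKO oil replicate 3 (-3.08, adjusted p = 0.183) and without *Esr1* cKO tamoxifen replicate 2 (-3.52, adjusted p = 0.0853). With mitochondrial share under 5% neither gene was among those tested, and *Cd74* was the 1 call. Without both libraries that stood apart the differences were -4.97 and -4.30 (both at adjusted p = 0.00247). Without the 25 microglia, which were picked by the UMIs of the genes tested here so that smaller differences follow from the choice itself, the values were -1.02 for *H2-Aa* (adjusted p = 0.981) and -0.49 for *H2-Eb1* (adjusted p = 0.994).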

How the data were processed

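RNA of single hypothalamus-POA cells of 16 mice was measured by Drop-seq. The deposited files hold raw UMI counts per gene and barcode, 146538 barcodes and 28683 genes in all. The submitters' processing notes name mm10, STAR 2.6 and Seurat 3.6.1; the authors' dissociation used papain and a density gradient.

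Members and gene lists were chosen with earlier results of these data known. Counts were summed per library and class (at least 5 cells) and fitted in edgeR 4.0.16 (R 4.3.3) by the quasi-likelihood test with TMM factors and its filter on low counts, and p-values were Benjamini-Hochberg adjusted over all genes tested. Replicates are mice, 1 library each, numbered in accession order. Scripts were tested on simulated data. Named genes were, per direction, the 12 with the largest log2FC among called genes that differed in every library and had 50 or more UMIs, and per contrast the 3 with the smallest p where none passed. A few other genes (*Lyz2*, *Myo3a*, *Myo7a*, *Pcdh15*, *Cep85*) were chosen after their values were seen. Shares were compared by 2-sided exact permutation tests. Alternatives were DESeq2 1.42.0, other size factors, no filter, stricter rules and libraries left out. No doublet caller was run. Some genes that the rule names are not reported here. Exact intervals are Clopper-Pearson and cover counting error only.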

Additional observations from a re-analysis of the deposited data

Results flagged for a closer look

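Of 39 comparisons of a mouse with the others of its group (Dixon's test, which chance passes in about 1 of 20), 4 picked out a mouse. PVM per 100 microglia were 12.565 in *Esr1* cKO oil replicate 2 and 9.48 to 9.96 in the other 3 mice. *Lyve1* in PVM was at 2509.3 CPM in *Esr1* cKO tamoxifen replicate 1 and at 1031 to 1077 CPM in the other 3. *Ptgds* in PVM was at 41837 CPM in wild-type tamoxifen replicate 2 and at most 2333 CPM in the others, with 489 of 490 UMIs in 1 cell. *Usp24* in PVM was at 1444.8 CPM in *Esr1* cKO oil replicate 4 and at 113 to 272 CPM in the others, with 27 of 31 UMIs in 1 cell.

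The tamoxifen effect differed between PVM and microglia of *Esr1* cKO mice for *H2-Aa* (-4.8791 on the log2 scale, edgeR adjusted p = 0.00231) and *H2-Eb1* (-4.0999, edgeR adjusted p = 0.00323). The PVM's own log2FC for *H2-Aa* was -0.06 (edgeR adjusted p = 0.993). Microglia with 10 or more MHC class II UMIs numbered 0 in *Esr1* cKO oil and 10 in *Esr1* cKO tamoxifen. Neither gene passed without *Esr1* cKO oil replicate 4, and *H2-Eb1* did not pass without *Esr1* cKO oil replicate 3 or *Esr1* cKO tamoxifen replicate 2, as given above.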

How the results depend on the processing

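Alternatives outside the original plan are named as added. The positive-count size factors were the first version run for both DESeq2 settings. They were replaced by the planned median-ratio factors after the results of both had been seen, and are kept as added alternatives. PVM against microglia gave 555 called genes in the reported fit. DESeq2 called 150 higher, and median-ratio factors in edgeR 152 higher. Positive-count factors (added) gave 841 called (47 higher, 794 lower) in edgeR and 839 (47, 792) in DESeq2. Without a filter on low counts 4576 were called, 4224 of them lower, with mitochondrial share under 5% 174 (87 higher, 87 lower), and with more than 500 genes per cell 354 (168, 186). Leaving out 1 mouse gave 523 to 726 called, 224 to 333 higher and 271 to 393 lower. All 734 values of the 24 named genes kept direction and call.

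For group contrasts, called by edgeR in 0 genes, the interaction had 2 with DESeq2 under either set of size factors, 4 with no filter and 2 with mitochondrial share under 5%. *Esr1* cKO against wild-type under oil had 1 with DESeq2 (0 with positive-count factors), 1 with no filter, 1 with mitochondrial share under 5% and 2 without both libraries that stood apart (added). Under tamoxifen these were 6 with no filter, 1 with mitochondrial share under 5% and 4 without both libraries. Tamoxifen against oil without the filter gave 1 in wild-type and 4 in *Esr1* cKO. Leaving out 1 mouse gave 0 to 1 in the interaction and 0 to 0 in the others. The difference between PVM and microglia had 1 call in wild-type without the filter, and 0 to 1 when leaving out 1 mouse. In *Esr1* cKO it had 5 with at most 1 microglial gene in PVM, 1 with mitochondrial share under 5%, 1 without number 2 of wild-type oil and *Esr1* cKO tamoxifen, 0 without MHC-rich microglia (added, and picked by UMIs of the genes tested), 4 without the *Ptgds*-rich cell (added), and 0 to 4 when leaving out 1 mouse. In wild-type, *H2-Aa* turned to -0.583 with at least 3 PVM genes and lay between -0.151 and 1.42 when leaving out 1 mouse, and *H2-Eb1* turned to 0.229 with at most 1 microglial gene and 0.0563 with more than 500 genes and lay between -0.412 and 0.507 when leaving out 1 mouse.

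Share differences that passed no test changed sign in some settings. As percent of kept cells, tamoxifen in *Esr1* cKO was 0.0236 with at most 1 microglial gene, 0.407 with mitochondrial share under 5% and 0.0844 with more than 500 genes, and genotype under oil -0.372 and -0.129 in the last pair. Per 100 microglia, tamoxifen in *Esr1* cKO was 4.85 and 1.35, genotype under oil -2.55 and -0.166, and -0.746 without both libraries, and genotype under tamoxifen -0.180 with no excluded gene and -0.827 without both libraries. Leaving out 1 mouse gave, for the share, -0.166 to -0.0431 (tamoxifen, wild-type), -0.0973 to 0.0541 (tamoxifen, cKO), -0.0210 to 0.114 (genotype, oil) and 0.0594 to 0.197 (genotype, tamoxifen), and per 100 microglia -2.74 to -0.625, -2.83 to -0.849, -0.746 to 1.25 and -0.827 to 1.47. The causes were not tested. For contrasts between groups within the PVM, the replicate block changed no call and left 0 called in each. The block was made of successive library numbers in sets of 4. PVM of the same set correlated at 0.0494 on average (-0.0747 to 0.587, 23 pairs), and while the methods describe 4 mice processed per day, the labels do not say whether a set is a day. PVM of 10 to 34 cells limit each mouse's value to steps of 29.1 to 123 CPM.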

Other observations

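*Retnla*, a resistin-like molecule made by macrophages, had 299 UMIs in 21 PVM and 1 UMI in microglia, with 64 of them in 1 cell of wild-type oil replicate 2. *Pla2g2d*, a secreted phospholipase, had 59 UMIs in PVM and 0 in microglia, and *Timd4*, a receptor for phosphatidylserine, 37 and 2. *Saa3*, an acute-phase protein, had 51 and 1. These genes did not pass the filter on low counts of the fit against microglia and were chosen after their values were seen.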
